A study of Mus musculus with 12 samples.

Results

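The 9 genes described here are those commonly used to mark the conjunctiva, the mucous membrane that lines the inner face of the eyelid: the keratins Krt4, Krt13 and Krt19, the membrane mucins Muc1, Muc4 and Muc16, the goblet-cell genes Muc5ac and Agr2, and the water channel Aqp5. They were taken by symbol from an expression table of 21936 mouse genes, and all 9 were in it. The study compared male C57BL/6 mice fed a standard diet (10 kcal% fat) with mice fed a high-fat diet (60 kcal% fat). Mice were 6 to 8 weeks old at the start, lived under 12 h of light a day, and were killed at 9h, 15h or 21h. The sample labels give 3 months of feeding and the series text 4 months. RNA came from tissue labelled meibomian gland, while the series text describes upper and lower eyelids taken whole. Sequencing gave 12 libraries, 2 for each diet at each time, so each diet had 6 libraries. The sources used here do not give the number of mice behind a library, so a p-value measures the spread between libraries, which may be technical.

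The surface of the eye is covered by a stratified, non-keratinised epithelium whose outer cells carry tall, heavily glycosylated mucins anchored in the membrane, and these hold the tear film and keep the surface wettable. Between the epithelial cells of the conjunctiva sit goblet cells, which fold, pack and release the gel-forming mucin Muc5ac into the tears. Keratins form the filaments inside the epithelial cells as pairs of a type II and a type I protein, and Krt4 with Krt13 is the usual pair of moist mucosal surfaces, including those of the mouth and oesophagus.

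Levels are given as FPKM, reads per kilobase of exon of a gene scaled to the depth of the library, which allows genes to be compared within a library. The libraries held 14096362 to 17889159 reads, so that a gene with 2 kb of exon gained 0.0279 to 0.0355 FPKM with each read. The 9 genes took 0.274% to 0.498% of a library's reads. Markers of other eyelid tissues were present: in the libraries on standard and high-fat diet the summed level was 388 to 1859 and 481 to 1157 FPKM for 10 epidermal genes, 2311 to 5781 and 2285 to 6254 for 7 skeletal muscle genes, and 6586 to 9489 and 7101 to 11096 for 11 genes of meibomian and sebaceous cells. The 5 corneal genes summed to 306 to 457 and 329 to 523 FPKM, of which Aldh3a1 was at 178 to 385, Lum at 42.5 to 103, Tkt at 28.9 to 57.4 and Kera at 12.1 to 37.4 FPKM, while the cornea's defining keratin Krt12 was at 0.0302 to 0.292 FPKM, close to no signal. Of 12 lacrimal and salivary genes, summed at 15.8 to 29.6 and 13.2 to 22.1 FPKM, Prol1, Dcpp2 and Smgc were under 0.1 FPKM in all 12 libraries. Others of the list were present at low levels: Scgb2b24 at 3.57 to 16.7 FPKM, Car6 at 0.843 to 5.57, Elf5 at 2.77 to 4.49 and Amy1 at 2.12 to 4.48. The airway gene Scgb1a1 stood at 40.2 to 138 FPKM, while Foxj1 of ciliated cells and Vil1 of gut cells did not pass 0.319 and 0.0599 FPKM.

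A pair of high-fat libraries stood apart in Fos and Fosb. The libraries numbered 6 at 15h and at 21h had the highest Fos, 101.4 and 162 FPKM against 6.76 to 51.5 in the other 10, and the highest Fosb, 27.7 and 31.7 FPKM against 0.355 to 2.86. Summed over the immediate early genes Fos, Fosb, Egr1, Jun and Atf3, the level was 71.3 to 107 FPKM on the standard diet and 69.99 to 484 on the high-fat diet. This list was added after the values were seen. Both high-fat libraries at 9h, at 171 and 141 FPKM, were also above the standard-diet range. Their Egr1 was at 46.5 and 49.1 FPKM against 12.6 to 21.8 on the standard diet, while their Atf3 (7.22 and 8.90) was within 5.73 to 12.7. The high-fat libraries numbered 2 at 15h and 3 at 21h, at 74.7 and 69.99 FPKM, were not above that range. The libraries numbered 6 at 15h and 21h held the highest values of Krt4 and Muc5ac and the highest high-fat values of Muc4. Some results below are also given without them, a choice that rests partly on the values of the members themselves. It leaves the high-fat groups at 15h and 21h without a replicate, so for single genes only differences and correlations are given.

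The 9 genes spanned a wide range of levels. Krt13 (median 761 FPKM) and Krt4 (541 FPKM) were among the most abundant transcripts of the tissue, at median rank 39.5 and 65 of all genes. Krt13 exceeded Krt4 in 12 of 12 libraries, by 1.11 to 1.65 times. Krt19 followed at 110.0 FPKM and Muc4 at 42.7 FPKM, and the ranges of Krt4, Krt19 and Muc4 did not overlap. Below Muc4 the order was less firm. Aqp5 had the lower median (33.2 FPKM) but was above Muc4 in 7 of 12 libraries and below it in 5, so these neighbours did not differ beyond their spread. Muc1 (19.7 FPKM), Agr2 (17.4 FPKM) and Muc5ac (11.8 FPKM) were each under the gene before in 11, 10 and 10 of 12 libraries, with overlapping ranges. Muc16 came last at 0.0595 FPKM, with Muc5ac 104 to 454 times above it within a library.

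**Figure D1:**
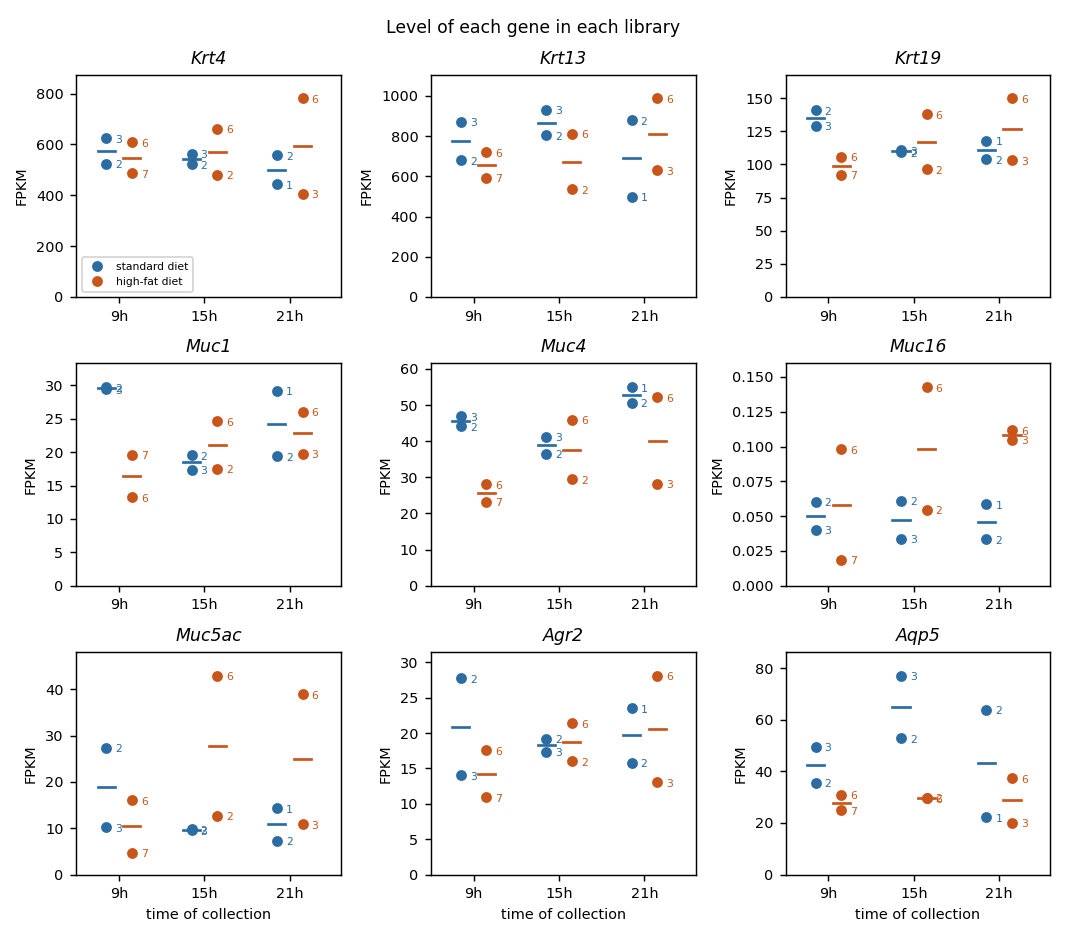
Level of each of the 9 genes in each of the 12 libraries, in FPKM on a linear axis from 0 with its own scale for each gene, against the time of collection. Points are libraries with their label numbers, blue for the standard diet and orange for the high-fat diet, and the short lines are means of 2 libraries. The high-fat libraries numbered 6 at 15h and 21h hold the highest Muc5ac, 42.9 and 38.9 FPKM, and Muc4 at 9h lies lower in both high-fat libraries than in both standard-diet libraries.

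Krt4 (ENSMUSG00000059668, GRCm38 chr15:101918535-101924735, minus strand), the type II keratin of the pair, was measured at 443.96, 541 and 623 FPKM (lowest, median and highest of 6 libraries) on the standard diet and at 405, 548 and 781 FPKM on the high-fat diet. Its partner Krt13 (ENSMUSG00000044041, chr11:100117327-100121566, minus strand) was at 499, 837 and 930.4 FPKM on the standard diet and at 535, 674 and 988 FPKM on the high-fat diet. Krt19 (ENSMUSG00000020911, chr11:100140810-100148665, minus strand), a small type I keratin of simple and mucosal epithelia, was at 104, 114 and 141 FPKM against 92.2, 104 and 149.9 FPKM. For all 3 keratins the diets overlapped, with the high-fat libraries spread more widely for Krt4 and Krt19 and the highest value of each keratin in the high-fat library numbered 6 at 21h. Averaged over times, the log2 difference of high-fat minus standard diet on log2(FPKM + 1) was 0.06 ± 0.17 (SE) for Krt4, -0.13 ± 0.19 for Krt13 and -0.07 ± 0.12 for Krt19, with limma adjusted p of 0.919, 0.813 and 0.837. The 95% intervals were -0.32 to 0.44, -0.54 to 0.29 and -0.33 to 0.19. Krt13 and Krt19 lie 19.2 kb apart with Krt15, a basal-cell keratin, as the 1 coding gene between them. Krt15 itself was at 1455 to 2083 FPKM, and the basal pair Krt5 and Krt14 at 1013 to 1429 and 1501 to 2052 FPKM, above Krt4 and Krt13 in every library.

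Krt19 was the keratin with the widest gap between diets at 9h: 141 and 129 FPKM on the standard diet against 106 and 92.2 FPKM on the high-fat diet. These libraries did not overlap, but the log2 difference of -0.45 ± 0.20 missed the threshold (limma adjusted p = 0.705). At 15h the values were 109 and 111 FPKM against 96.4 and 138 FPKM, and at 21h 118 and 104 FPKM against 103 and 149.9 FPKM, so the high-fat libraries lay on both sides of the standard-diet libraries at both times.

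Muc1, Muc4 and Muc16 are transmembrane mucins, and Muc4 and Muc16 are large proteins that extend far from the surface of the cell. Muc1 (ENSMUSG00000042784, chr3:89229057-89233381, plus strand) and Muc4 (ENSMUSG00000079620, chr16:32735886-32782391, plus strand) had the smallest unadjusted p of the members for diet at 9h, while the log2 difference of Muc5ac was as large. The 250 bases before their start sites are shown because both hold a TATA box, TATAAA, close to the start, printed in capitals. The sequences run 5′ to 3′ on the plus strand of GRCm38.p6 in RefSeq, at chr3:89228806-89229055 for Muc1 and chr16:32735636-32735885 for Muc4.
Muc1: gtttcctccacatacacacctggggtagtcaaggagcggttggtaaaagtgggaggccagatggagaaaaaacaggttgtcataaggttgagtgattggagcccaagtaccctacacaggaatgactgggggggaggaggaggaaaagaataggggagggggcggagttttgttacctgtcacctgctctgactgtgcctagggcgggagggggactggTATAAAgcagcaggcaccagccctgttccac
Muc4: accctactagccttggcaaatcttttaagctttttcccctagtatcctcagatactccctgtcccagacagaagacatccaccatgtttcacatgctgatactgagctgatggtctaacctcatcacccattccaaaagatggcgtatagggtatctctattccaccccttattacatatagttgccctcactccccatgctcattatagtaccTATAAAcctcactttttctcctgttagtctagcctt
The box lies 31 to 26 bases before the start of Muc1 and 36 to 31 bases before that of Muc4. Among 32851 mouse promoters of this length, 12.4% hold TATAAA on either strand. The table held promoters for 6 of the 9 genes, Krt13, Muc1, Muc4, Muc16, Agr2 and Aqp5. In none of the 6 was there a match on either strand to the D-box TTANGTAA (2.06% of promoters), the STAT site TTCNNNGAA (7.02%) or the core of the interferon-stimulated response element (2.98%).

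Muc4 was at 44.2 and 46.9 FPKM on the standard diet and at 28.1 and 23.2 FPKM on the high-fat diet at 9h. At 15h it was at 36.6 and 41.2 FPKM against 29.4 and 45.9 FPKM, and at 21h at 54.9 and 50.7 FPKM against 28.2 and 52.1 FPKM. The high-fat mean was lower at all 3 times, and 4 of 6 high-fat libraries were below the lowest standard-diet library. The remaining high-fat libraries were those numbered 6 at 15h and 21h. The share of all genes placed in this way was not computed. The means were 45.7 ± 6.61 FPKM (SD, n = 6) on the standard diet and 34.5 ± 11.6 FPKM (n = 6) on the high-fat diet. The averaged log2 difference of -0.44 ± 0.16 (95% interval -0.80 to -0.09) had an unadjusted p of 0.0188 and missed the threshold after adjustment over all genes (limma adjusted p = 0.243). A fit without the libraries numbered 6 at 15h and 21h, a choice made after the values were seen, called 1.69% of all genes. The averaged log2 difference of Muc4 was -0.69 there. The libraries left out were the only high-fat ones not below the lowest standard-diet library for Muc4. Leaving them out therefore had to widen the difference and narrow the spread. That fit cannot test Muc4, and only its difference is given. With each of the 12 libraries left out in turn it ranged from -0.59 to -0.30 and was never called (limma adjusted p 0.0647 to 0.50). In bulk tissue, fewer cells of a type and less RNA per cell cannot be told apart.

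Muc1 was at 29.7 and 29.5 FPKM on the standard diet and at 13.2 and 19.6 FPKM on the high-fat diet at 9h. At 15h it was at 19.6 and 17.4 FPKM against 17.6 and 24.7 FPKM, and at 21h at 29.2 and 19.4 FPKM against 19.7 and 26.1 FPKM. Only at 9h were both high-fat libraries below both standard-diet libraries, and at the other times the diets overlapped. The log2 difference at 9h was -0.84 ± 0.24 for Muc1 and -0.81 ± 0.27 for Muc4, with unadjusted p of 0.00726 and 0.0148 and limma adjusted p of 0.418 and 0.520. For Muc1 the averaged difference was -0.25 ± 0.14 (limma adjusted p = 0.482). Its difference varied between times with an unadjusted interaction p of 0.0407 and a limma adjusted p of 0.999.

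Muc16 (ENSMUSG00000109564, chr9:18495455-18674530, minus strand) was close to no signal. Its merged exons span 26350 bases, and only 8 to 56 reads fell on them per library. On the standard diet it was at 0.0603 and 0.0403 FPKM at 9h, 0.0610 and 0.0336 at 15h, and 0.0586 and 0.0335 at 21h. On the high-fat diet it was at 0.0979 and 0.0186 FPKM at 9h, 0.0545 and 0.143 at 15h, and 0.105 and 0.112 at 21h. Of the high-fat libraries, 4 of 6 were above the highest standard-diet library and 1 was below the lowest. Muc16 was under the filter of 1 FPKM in all 12 libraries and was left out of the fit across genes. A 2-sided exact permutation of diet within time, whose smallest possible p is 0.00926, gave p = 0.0833 for a difference of 0.05 on log2(FPKM + 1), with no adjustment for the 9 genes so tested.

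Muc5ac (ENSMUSG00000037974, chr7:141788972-141819231, plus strand), the main gel-forming mucin of the tear film, varied more between libraries than any other member with an appreciable level, by 9.10 times from lowest to highest. On the standard diet it was at 27.4 and 10.3 FPKM at 9h, 9.83 and 9.60 at 15h, and 14.4 and 7.27 at 21h. On the high-fat diet it was at 16.1 and 4.71 FPKM at 9h, 12.7 and 42.9 at 15h, and 10.9 and 38.9 at 21h. The 42.9 and 38.9 FPKM belong to the libraries with the highest Fos, and the other 4 high-fat libraries, at 4.71 to 16.1 FPKM, lay within or below the standard-diet range. The averaged log2 difference was 0.43 ± 0.45 (limma adjusted p = 0.718, 95% interval -0.58 to 1.44), and without the libraries numbered 6 at 15h and 21h it was -0.14. It was -0.86 at 9h, 1.195 at 15h and 0.95 at 21h, with a standard error of 0.77 and limma adjusted p of 0.847, 0.599 and 1.00. Each of these rests on single libraries. At 9h it was -0.19 without the standard-diet library numbered 2 and -0.065 without the high-fat library numbered 7, and -1.52 and -1.65 without the other library of each diet. At 15h it was 0.36 without the high-fat library numbered 6 and 2.03 without the one numbered 2. At 21h it was 0.076 without the high-fat library numbered 6 and 1.83 without the one numbered 3. How far the state seen in the immediate early genes bears on Muc5ac was not tested.

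Agr2 (ENSMUSG00000020581, chr12:35992907-36004087, plus strand), a disulfide isomerase of the endoplasmic reticulum needed to fold mucins, was at 14.0, 18.3 and 27.8 FPKM (lowest, median and highest) on the standard diet and at 10.9, 16.8 and 28.1 FPKM on the high-fat diet. The diets overlapped over almost their full range, and the averaged log2 difference was -0.16 ± 0.23 (limma adjusted p = 0.812). Its highest values were 27.8 FPKM in the standard-diet library numbered 2 at 9h and 28.1 FPKM in the high-fat library numbered 6 at 21h, which were also high for Muc5ac. From lowest to highest library Agr2 differed by 2.58 times and Muc5ac by 9.10 times, and the ratio of Muc5ac to Agr2 ran from 0.432 to 2.002 with a median of 0.763.

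Aqp5 (ENSMUSG00000044217, chr15:99590782-99594829, plus strand), a water channel of secretory and surface epithelia, had the largest averaged difference of the members. At 9h it was at 35.5 and 49.6 FPKM on the standard diet and at 30.8 and 25.0 FPKM on the high-fat diet. At 15h it was at 52.8 and 77.0 FPKM against 29.9 and 29.6 FPKM, and at 21h at 22.2 and 64.0 FPKM against 20.1 and 37.4 FPKM. Both high-fat libraries were below both standard-diet libraries at 9h and 15h, and at 21h the standard-diet library numbered 1 fell among the high-fat values. This library also had the highest epidermal sum, 1859 FPKM, with the next highest at 1157 FPKM in the high-fat library numbered 2 at 15h. It held the lowest Krt13 (499 FPKM) and the highest Muc4 (54.9 FPKM) of all libraries. The part of its tissue mixture in these values was not tested. The means were 50.2 ± 19.6 FPKM (SD, n = 6) and 28.8 ± 5.84 FPKM (n = 6). The averaged log2 difference of -0.70 ± 0.26 (95% interval -1.28 to -0.12) had an unadjusted p of 0.0226 and missed the threshold after adjustment (limma adjusted p = 0.263). At 15h it was -1.08 ± 0.44 (limma adjusted p = 0.403). With each library left out in turn the averaged value ranged from -0.95 to -0.45 and was never called (limma adjusted p 0.0544 to 0.534); the lower adjusted p came without the standard-diet library numbered 1 at 21h. At 21h alone the difference was -0.45 and turned to 0.30 without the standard-diet library numbered 2, the one at 64.0 FPKM.

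The 250 bases before the RefSeq start of Aqp5 hold CACGTG, the E-box that the CLOCK and BMAL1 proteins of the circadian clock bind, and the site is shown because the mice were sampled at 3 times of day. It lies 87 to 82 bases before that start and is in capitals within 30 bases of the plus strand of GRCm38.p6, chr15:99590929-99590958.
Aqp5: tgccgcgtgggtCACGTGgcccgggcgggt
Of all promoters of this length 6.02% hold CACGTG, and of the other 5 members with a promoter in the table none did. The bases G and C made up 78.4% of the 250 bases of Aqp5, more than in 98.1% of promoters, and 43.6% to 54.8% in the other 5. The share with CACGTG among promoters of like G and C content was not computed. The GENCODE gene starts upstream of the RefSeq start, and 246 of these 250 bases, the site included, lie in annotated exon by GENCODE, so that by this annotation the site is inside the gene and not before it. A match of letters is a description of the sequence, and no binding was measured. Aqp5 itself was not called for time on either diet.

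Across the set, 0 of the 8 genes tested were called for the diet difference averaged over times (limma, adjusted p under 0.05), where 1.98% of the 13228 genes tested were called (1.08% to 2.21% with each library left out in turn). Another test, limma-voom on recovered reads, also called 0 of the 8 in this and in each of the comparisons below. At an unadjusted p under 0.05 there were 2, Muc4 and Aqp5, against 14.1% of all genes. The values were negative for 6 and positive for 2, Krt4 and Muc5ac, with a median of -0.14 beside -0.01 over all genes. At 9h all 8 values were negative, with a median of -0.53 beside 0.02 over all genes, and again 0 were called, where 0% of all genes were called and 7.22% had an unadjusted p under 0.05 (Muc1 and Muc4 among the members). At 15h 5 values were positive and 3 negative (median 0.04 beside -0.03), and at 21h 4 and 4 (median 0.08 beside -0.01). No member was called at 15h, where 0.0605% of all genes were and 1 member, Aqp5, had an unadjusted p under 0.05, nor at 21h, where 0.00756% were called, 5.37% had an unadjusted p under 0.05, and no member did. At 15h the unadjusted share of all genes was 11.6%. The shares called at 1 time moved with single libraries. They reached 1.17% at 9h without the high-fat library numbered 7 at 9h, 0.544% at 15h without the high-fat library numbered 2 at 15h, and 0.204% at 21h without either high-fat library of 15h, with 0 members called in each.

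**Figure D2:**
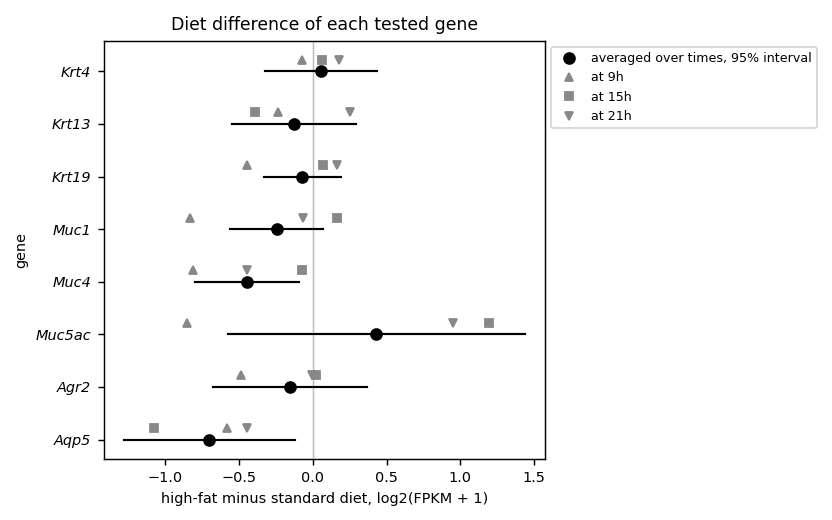
High-fat minus standard diet for the 8 tested genes, as a difference in log2(FPKM + 1). Black points are the limma values averaged over times with 95% intervals, and grey symbols are the values at each time. Every grey triangle for 9h lies left of 0, and the intervals of Muc4 and Aqp5 lie below 0 before any adjustment for the number of genes.

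Counted by library, 4 of the 8 tested members had both high-fat libraries below both standard-diet libraries at 9h, Krt19, Muc1, Muc4 and Aqp5, and none had both above. Over all genes tested, 14.8% were lower and 15% higher in this way at 9h. At 15h 1 member was wholly lower, Aqp5 (26.7% of all genes), and 1 wholly higher, Muc5ac (19%). At 21h all 8 overlapped, where 22.2% of all genes were wholly lower and 15.6% wholly higher. Other markers moved with diet in the same libraries. The 8 interferon-response genes were all called lower, at a summed 290.1 to 561 FPKM on the standard diet and 44.7 to 120.4 on the high-fat diet. Of 5 T-cell genes tested 2 were called lower, at a summed 11.3 to 21.1 and 6.26 to 9.12 FPKM. Among the 11 genes of meibomian and sebaceous cells 1 was called higher. All 11 had a positive averaged difference, with a median of 0.24 beside -0.01 over all genes, while at 9h 7 were positive and 4 negative. Of all genes tested 1.78% were called lower and 0.204% higher. The T-cell gene Cd3d (limma adjusted p = 0.0488) and the meibomian gene Soat1 (0.0409) were near the threshold. No gene of the corneal, epidermal, hair follicle, lacrimal and salivary, skeletal muscle or melanocyte lists was called for the averaged diet difference. The part of the called markers in the values of the 9 genes was not tested.

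Time of day was then compared. On the standard diet 0 of the 8 tested members varied between the 3 times (limma F test, adjusted p 0.31 to 0.983), where 0.0227% of all genes were called (0% to 6.34% with each library left out in turn, the highest without either high-fat library of 9h, and 5.68% with only the libraries compared). Of all genes 18.3%, and none of the 8, had an unadjusted p under 0.05. On the high-fat diet 0 varied (limma adjusted p 0.683 to 0.993), where 0% of all genes were called (0.476% without the high-fat library numbered 6 at 9h) and 8.73% had an unadjusted p under 0.05, none of the 8 among them. For 21h against 9h over both diets 6.02% of all genes were called (0.0302% to 25.5% with each library left out in turn, the former without the standard-diet library numbered 3 at 9h and the latter without the high-fat library numbered 6 at 9h) and 0 of the 8 members, and 28.3% of all genes and 0 members had an unadjusted p under 0.05. The smallest adjusted p among them was that of Muc4, with a log2 difference of 0.39 ± 0.19 (limma adjusted p = 0.215). No member was called for 15h against 9h, where 0.0227% of all genes were (0.00756% higher and 0.0151% lower, and 20.5% in all without the high-fat library numbered 6 at 9h) and 23.2% had an unadjusted p under 0.05, or for 21h against 15h, where 0% were and 4.45% had an unadjusted p under 0.05; 0 members had one in either comparison. The interaction of diet and time gave 0 calls among the members and 0% among all genes, with 3.06% at an unadjusted p under 0.05. Of 7 skeletal muscle genes 5 were called lower at 21h than at 9h, which gives the share of muscle RNA as another quantity that differed between these times. Its part was not tested.

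The members did not vary from library to library as 1 block. As a description over the 12 libraries, which share their depth and their mixture of tissues, Pearson's r of log2(FPKM + 1) was 0.78 between Krt4 and Krt13, the keratin pair. Muc5ac had an r of 0.81 with Agr2, 0.83 with Krt19 and 0.80 with the near-silent Muc16. Muc4 had an r of 0.73 with Krt19 and 0.67 with Muc1. Aqp5 went with Krt13 (r = 0.75) and not with Muc5ac (-0.19), Muc16 (-0.41) or Muc1 (-0.11). Without the libraries numbered 6 at 15h and 21h, r was 0.73 for Krt4 and Krt13, 0.81 for Muc5ac and Agr2, 0.68 for Muc5ac and Krt19, and 0.89 for Aqp5 and Krt13, while Muc5ac and Krt4 went from 0.56 to 0.03.

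**Figure D3:**
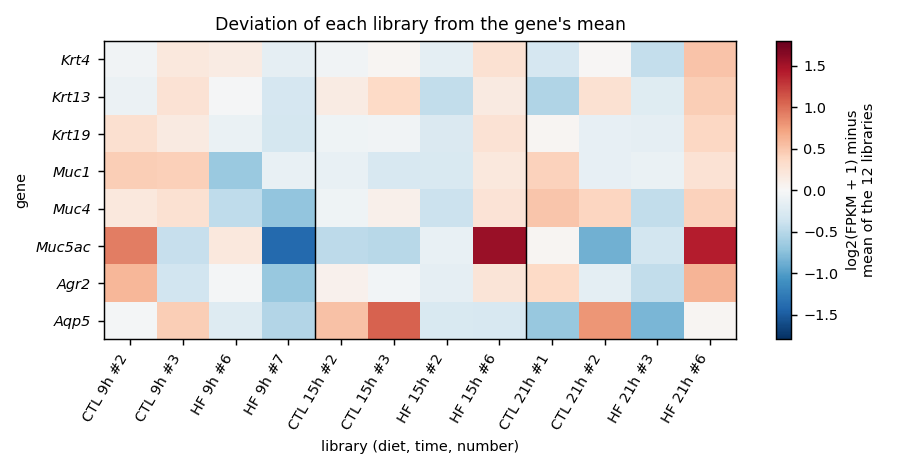
Deviation of log2(FPKM + 1) from the gene's mean over 12 libraries, for the 8 tested genes (rows) in each library (columns, ordered by time and diet, CTL for the standard and HF for the high-fat diet, with label numbers). Red is above and blue below the mean. Muc5ac is deepest red in the high-fat libraries numbered 6 at 15h and 21h, and Aqp5 is highest in the standard-diet library numbered 3 at 15h (77.0 FPKM).

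The genes nearest to each member over the 12 libraries, out of 13227 others, were as follows. Muc5ac was most like Muc5b, another gel-forming mucin at only 0.123 to 1.91 FPKM (r = 0.92), then Ptgs2 (0.90), the inducible cyclooxygenase, and the cytokine gene Il6 (0.88). Without the libraries numbered 6 at 15h and 21h these r values were 0.91, 0.77 and 0.70. Agr2 was most like Pigr (0.90), the receptor that carries IgA across epithelia, then Socs3 (0.89), an inhibitor of cytokine signalling, and Reg3g (0.85), an antibacterial lectin. Muc4 was most like the amino-acid transporter Slc6a14 (0.94), Galnt3 (0.94), an enzyme that starts O-linked sugar chains such as those of mucins, and the kinase gene Frk (0.94). Krt19 was most like Mdfi (0.89), the zinc transporter Slc39a4 (0.88) and Slc44a4 (0.88). Muc1 was most like Trex2 (0.88), Prss27 (0.83) and Klk14 (0.83), of which Prss27 and Klk14 encode serine proteases. Krt13 was most like Enpp3, Snap47 and Cda (0.84 to 0.86), Krt4 like Tbc1d5, Nr4a2 and Foxp1 (0.82 to 0.86), and Aqp5 like the histone gene H4c3, Hps1 and Dsc2 (0.84 to 0.90). Such values are the highest among many genes and are a description of these libraries.

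Related genes of the surface epithelium were compared as a list of 22, of which 21 were tested. On the high-fat diet 3 fell and 0 rose averaged over times (limma, adjusted p under 0.05), where 1.78% of all genes tested fell, and 17 of 21 values were negative with a median of -0.18. Those called were Cldn7, a tight-junction claudin of epithelia, Elf3, an epithelial transcription factor, and Cxcl17, a chemokine of mucosal surfaces. Cldn7 was at 55.3, 60.8 and 72.9 FPKM (lowest, median and highest) on the standard diet and at 28.95, 32.8 and 42.7 FPKM on the high-fat diet, a log2 difference of -0.83 ± 0.11 (limma adjusted p = 0.00493). Elf3 was at 81.7, 98.3 and 102 FPKM against 48.1, 66.0 and 81.3 FPKM, a difference of -0.55 ± 0.10 (limma adjusted p = 0.0306). Cxcl17 was at 29.6, 32.5 and 41.2 FPKM against 15.3, 20.2 and 27.2 FPKM, a difference of -0.72 ± 0.14 (limma adjusted p = 0.0334). For all 3 genes each of the 6 high-fat libraries was below every standard-diet library, the highest high-fat Elf3 at 81.3 FPKM just under the lowest standard-diet value of 81.7. The 3 genes were named because they were called on these same values, so their separation is a description. The share of all genes so separated was not computed. The call of Cldn7 held with each library left out in turn (limma adjusted p 0.00460 to 0.0246). That of Elf3 was lost in 8 of 12 such fits (adjusted p up to 0.110), all but those without the standard-diet library 2 at 15h, the high-fat library 6 at 9h, 15h or 21h. That of Cxcl17 was lost in 9 of 12 (adjusted p up to 0.126), all but those without the standard-diet library 2 at 15h or the high-fat library 6 at 9h or 21h. Psca, a surface protein of mucosal epithelia, was among the 4 with a positive value, at 196 and 272 FPKM in the high-fat libraries numbered 6 at 15h and 21h against 63.4 to 165 in the others.

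**Figure D4:**
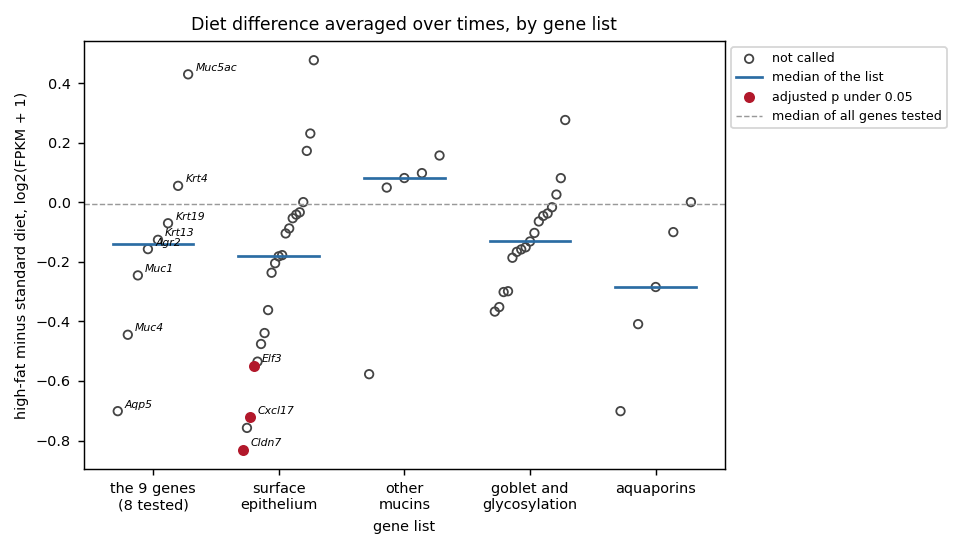
Diet difference averaged over times, in log2(FPKM + 1), for each tested gene of the 9 members and of 4 related lists (Aqp5 is shown both with the members and with the aquaporins). Filled red points have a limma adjusted p under 0.05, open points do not, blue lines are list medians and the dashed line is the median of all genes tested, -0.01. Cldn7, Cxcl17 and Elf3 are the only filled points.

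Of 11 other mucin genes 5 were tested and 0 were called (limma), with 4 positive and 1 negative value and a median of 0.08. The negative one was Muc20, a small membrane mucin, at 15.3, 17.9 and 23.4 FPKM on the standard diet and 8.67, 10.7 and 18.3 FPKM on the high-fat diet. Its averaged difference of -0.58 ± 0.16 missed the threshold (limma adjusted p = 0.144). It was -0.73 without the high-fat library numbered 6 at 21h and -0.84 without both libraries numbered 6 at 15h and 21h. Both of these fits leave a group without a replicate, so only the differences are given. As with Muc4, 4 of 6 high-fat libraries were below the lowest standard-diet library, a count for which no share of all genes was computed. Muc5b differed by 0.16 ± 0.19 (limma adjusted p = 0.768), and Muc3 and Muc19 were under 0.1 FPKM in every library.

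Of 27 genes of goblet cells and of mucin folding and glycosylation, 17 were tested and 0 were called for diet (limma), with 14 negative and 3 positive values and a median of -0.13. Nearest to the threshold was St6galnac1, which caps mucin sugars with sialic acid, at -0.30 ± 0.07 (limma adjusted p = 0.0682). Without the high-fat library numbered 6 at 9h, a fit that leaves that group without a replicate, the difference was -0.34. Pdia4, a protein disulfide isomerase, stood at -0.30 ± 0.09 (limma adjusted p = 0.147). The goblet-cell transcription factor Spdef was low, at 0.372 to 2.94 FPKM, and Tff3, a trefoil peptide secreted with mucins, was at 0 in all 12 libraries, while Tff1 and Tff2 reached at most 0.257 and 0.605 FPKM. At 21h against 9h over both diets 1 of 21 tested surface-epithelium genes and 1 of these 17 were called. None of the 5 other mucins or the 5 aquaporins tested was called. Of all genes 6.02% were called, 2.59% higher and 3.43% lower. The uroplakin gene Upk1b rose by 0.42 (limma adjusted p = 0.0380) and Creb3l1, a transcription factor of secretory cells, fell by 0.61 (limma adjusted p = 0.0323). Both calls depended on single libraries. That of Upk1b was lost without any 1 library of 9h or 21h except the high-fat library 6 at 9h (adjusted p up to 0.137), and that of Creb3l1 without any of the same libraries or either standard-diet library at 15h (adjusted p up to 0.121).

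Among 7 aquaporin genes, 5 of them tested with Aqp5 included, 0 were called for diet (limma), with 4 negative values and a median of -0.28. Aqp3, the water and glycerol channel of basal epithelial cells, was much the most abundant at 219.8 to 356 FPKM, and its difference was -0.28 ± 0.09 (limma adjusted p = 0.184). Aqp4 was at 3.36 to 15.6 FPKM with a difference of -0.41 ± 0.25 (limma adjusted p = 0.503). Aqp5 had the largest difference of the 5 and a wider standard error (0.26) than Aqp3.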

How the data were processed

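RNA-seq values of 12 libraries were used as the authors deposited them, in FPKM; per the submitters' processing notes HISAT2 2.0.5, HTSeq 0.9.1 and DESeq 1.30.0 were used with build mm9, while how FPKM was computed, with which annotation and strand setting, is not given in the sources used here. Per the labels' protocols, Trizol was used for RNA and a NEBNext kit for the libraries. Of 21936 gene IDs, 21894 were found in GENCODE release 21 (mouse, GRCm38). With its merged exon lengths, 98.1% of the nonzero values were whole reads within 0.02, which gave the read numbers and the coordinates. All columns of the table were matched to samples.

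The test was limma 3.58.1 in R 4.3.3 with a mean-dependent prior on log2(FPKM + 1), for 13228 genes above 1 FPKM in at least 2 libraries, of which 8 are members. A mean for each of the 6 groups left 6 residual degrees of freedom, and Benjamini-Hochberg adjustment ran over all genes tested. Fold changes of low genes are understated on this scale. The design allowed for a count table; the table held FPKM, so the test for FPKM was used. The fit was run on simulated reads for the averaged diet difference only, with independent genes and the same spread setting for every gene. That run held no shifts of tissue mixture or of single libraries, so it cannot show how the fit handles them. Without replicate origins, p-values measure the spread between libraries.

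The 9 members and the gene lists were chosen with earlier results of these data known. Named were all members, from each related list up to 3 called genes or else 2 of smallest p, and the 3 genes with the highest Pearson r to each member; other genes (Psca, Muc5b beside Muc5ac, Spdef, trefoil genes, basal keratins and the immediate early genes) were chosen after their values were seen. Promoters came from RefSeq on GRCm38.p6, 250 bases before a start. Alternatives were a pseudocount of 0.1, no filter, upper-quartile scaling, limma-voom on recovered reads, the library number as a block, only the libraries compared, and each library left out; leaving out the high-fat libraries numbered 6 at 15h and 21h was added after the values were seen.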

Additional observations from a re-analysis of the deposited data

Results flagged for a closer look

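Muc5ac in the standard-diet library numbered 2 at 9h was far from the other libraries of its diet, at 27.4 FPKM where the next highest of the 6 libraries was at 14.4 FPKM. The gap was 0.648 of the whole range, above Dixon's 95% limit of 0.625 for 6 libraries. Of 18 groups so tested (9 genes in 2 diets) this was the only 1, and chance gives about 1 in 20.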

How the results depend on the processing

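The number of members called was 0 in all comparisons with a pseudocount of 0.1, no filter, upper-quartile scaling, limma-voom on recovered reads, the library number as a block and each library left out, and with only the libraries compared in the 5 comparisons where that was run (diet at each time and time on each diet). Leaving out the high-fat libraries numbered 6 at 15h and 21h was chosen after seeing the data. It left these groups without a replicate, so for single genes only the differences of that fit are given. Its calls are not part of the count above. Values turned sign for Krt4 (-0.18), Muc5ac (-0.14) and Muc5b (-0.057) there. With each library left out in turn the averaged log2 difference ranged from -0.10 to 0.21 for Krt4, -0.26 to 0.010 for Krt13, -0.16 to 0.019 for Krt19, -0.33 to 0.018 for Agr2 and -0.0069 to 0.32 for Muc5b, and that of Aqp5 at 21h from -1.19 to 0.30. Without the filter the calls of Elf3, Cxcl17, Upk1b and Creb3l1 were lost (limma adjusted p 0.0541, 0.0637, 0.0537 and 0.0520), and that of Cldn7 held (0.0148). Where a sign or call was lost the cause was not tested.

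The library numbers recur across groups. Deviations of same-numbered libraries had r of -0.50 to 0.29, over 0.1 in 3 of 12 pairs, the highest between the high-fat libraries numbered 6 at 15h and 21h. With 2 libraries a group the deviations mirror each other, so these r are not independent and cannot settle whether the numbers pair the samples. Numbers 6 and 7 occur only on the high-fat diet and number 1 only on the standard diet. A block by number is thus partly confounded with diet. It links the diets only through numbers 2 and 3, on the high-fat diet the libraries 2 at 15h and 3 at 21h. In the main fit the library numbers were not taken to pair the samples. As a replicate block, which left 2 residual degrees of freedom, they gave averaged differences of -0.42 for Krt4, -0.21 for Muc5ac and -0.10 for Muc5b, and larger ones of the same sign for Muc4 (-0.89), Aqp5 (-1.22), Krt13 (-0.67), Muc1 (-0.52), Krt19 (-0.35) and Agr2 (-0.35), none called (limma adjusted p 0.161 to 0.785). In the block fit 0 of all genes were called for the averaged diet difference (1879 at an unadjusted p under 0.05) and 0 for 21h against 9h (1957). The calls of Cldn7 (-1.05), Elf3 (-0.66), Cxcl17 (-0.84), Upk1b (0.44) and Creb3l1 (-0.48) were lost there without a smaller difference, except for Creb3l1. Depth limits only Muc16 among the members, with 8 to 56 reads. With 2 libraries a group, differences at 1 time carry wide intervals.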
